A study of Mus musculus with 24 samples.

Results

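Crx and Fer1l4 are the 2 genes, of 16317 tested from the 24454 in the count table, that passed the threshold when gentamicin (GM) was compared with untreated controls (CTRL) after 24 h in organ of Corti (OC) explants. They were chosen by the adjusted p of that difference, so their levels in the GM and CTRL groups at 24 h are described here without a test, and tests are given only for the other groups. The values that chose them were an adjusted p of 0.000395 for Crx and 0.0144 for Fer1l4, from edgeR's quasi-likelihood test with Benjamini-Hochberg adjustment. The next gene outside the threshold of 0.05 was the predicted gene Gm3336, at 0.104. That these 2 genes passed holds for this setting, since other settings called between 0 and 24 genes and fits without single libraries between 1 and 5.

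The explants came from C57BL/6N mice of both sexes, 5 days old, and were kept for 24 h in medium containing penicillin before treatment. They were then exposed to 50 µM GM, to 10 µM pioglitazone (PIO), to both drugs at these concentrations (PIO+GM), or to medium with no drug (CTRL). RNA was taken after 6 h or 24 h of treatment, which gave 8 groups of 3 libraries and 24 libraries in all, each pooling 6 explants. The study's methods call the treatments triplicates. Neither they nor the labels say whether the 3 libraries came from separate litters or days, so the p-values measure the spread between these libraries. All groups share the strain, the age, the culture and the penicillin, which is itself an antibiotic. Each library held RNA of whole explants, with hair cells, supporting cells, nerve and glia together, so fewer cells of a type and less RNA per cell cannot be told apart.

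Library totals ran from 7211357 to 15548856 assigned reads, with a median of 12538495, and the shallowest was the third PIO+GM library at 6 h. At these totals 3 counts, used here as the detection floor, correspond to between 0.193 and 0.416 counts per 1000000 assigned reads (CPM). The hair cell gene Otof, which encodes otoferlin, was present at 720 to 2561 counts in every library, and the hair cell myosin Myo6 at 2789 to 8576, both being defining genes of the tissue.

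Crx, the cone-rod homeobox protein, is a paired-like homeodomain transcription factor related to OTX proteins. It is known from photoreceptors of the retina and from the pineal gland, where it activates phototransduction and melatonin pathway genes by binding a short core sequence, and it is not a usual marker of the cochlea. Fer1l4 belongs to the ferlins, large membrane-anchored proteins with several calcium-binding C2 domains that act in vesicle fusion and membrane repair. Otoferlin is the ferlin of the hair cell ribbon synapse and dysferlin the ferlin of muscle membrane repair, whereas the human counterpart of Fer1l4 is annotated as a pseudogene transcribed into a long non-coding RNA. Gentamicin is an aminoglycoside antibiotic that is toxic to hair cells, and pioglitazone activates the nuclear receptor PPAR-γ.

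In the GENCODE vM21 annotation of GRCm38 (mm10), Crx (Entrez 12951) lies on the minus strand at chr7:15865947-15879968, a span of 14022 bp with 5 transcripts. Its longest transcript with a consensus coding sequence has 4 exons, 2919 nt and a coding length of 897 nt. Fer1l4 (Entrez 74562) lies on the minus strand at chr2:156019139-156052947, a span of 33809 bp with 6 transcripts. Its longest protein-coding transcript has 45 exons, 6106 nt and a coding length of 5982 nt, and the annotation gives it as protein coding but without a consensus coding sequence. The counts cover the exons of these genes, and no other annotated gene overlaps either of them on either strand. Every stretch of 76 bases, the read length, was searched for in all other transcripts. Of 2844 such stretches in Crx and 6031 in Fer1l4, 0 were found in another gene on the same or the opposite strand.

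The 250 bases before each RefSeq start site are shown because the same comparison chose the 2 genes and because Crx protein is known to bind the core GGATTA. They are written 5′ to 3′ on the minus strand of GRCm38.p6 (chr7:15879956-15880205 for Crx and chr2:156052994-156053243 for Fer1l4), from RefSeq, with matches to GGATTA and to the AP-1 sequence TGANTCA in capitals.
Crx: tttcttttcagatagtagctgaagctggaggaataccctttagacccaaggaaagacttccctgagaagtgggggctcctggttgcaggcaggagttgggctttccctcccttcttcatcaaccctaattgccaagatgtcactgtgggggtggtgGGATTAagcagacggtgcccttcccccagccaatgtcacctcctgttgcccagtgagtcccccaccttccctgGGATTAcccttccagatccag
Fer1l4: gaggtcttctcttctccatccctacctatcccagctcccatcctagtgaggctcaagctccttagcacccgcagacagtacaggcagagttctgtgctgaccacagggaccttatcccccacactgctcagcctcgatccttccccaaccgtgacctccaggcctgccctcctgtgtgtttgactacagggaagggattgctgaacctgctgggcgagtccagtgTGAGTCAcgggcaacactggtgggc
Both strands were searched. The Crx sequence held GGATTA at 94 and 21 bases before the start, and the Fer1l4 sequence held no match. Of 32851 mouse promoter sequences of the same length, 6.25% held at least 1 GGATTA and 0.295% held 2 or more. The Fer1l4 sequence held TGANTCA at 25 bases before the start, which 6.75% of promoters hold, and the Crx sequence held none. Neither held the cAMP response element TGACGTCA (1.55% of promoters), TATAAA (12.4%), the interferon-stimulated response element ISRE (2.98%), the STAT sequence TTCNNNGAA (7.02%) or CACGTG (6.02%). The pair therefore had none of the 7 searched sequences in common in this window, and 54.4% and 58.8% of its bases were G or C.

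Both genes were scarce transcripts. Averaged over the 24 libraries, Crx stood at 1.37 CPM and Fer1l4 at 1.08 CPM, above 11.3% and 9.0% of the 16317 genes tested, and both passed the filter on low counts. Crx passed it through its gentamicin groups, but with no filter the tests for PIO+GM against PIO at 24 h gave 4.49 (adjusted p = 0.000227) for Crx and 3.65 (adjusted p = 0.000233) for Fer1l4. At 24 h the 3 CTRL libraries held 2, 0 and 3 counts of Crx and the 3 PIO libraries 2, 1 and 2. The GM libraries held 34, 45 and 51, and the PIO+GM libraries 31, 29 and 49. Every library with gentamicin was therefore well above every library without it, and the latter were all at or under the floor of 3 counts.

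Fer1l4 showed the same division at 24 h, with 3, 4 and 4 counts in CTRL and 2, 3 and 4 in PIO. The counts were 18, 30 and 34 in GM and 38, 23 and 46 in PIO+GM. Again no library with gentamicin overlapped a library without it. Over all tested genes, 0.337% (55 genes) had all 6 gentamicin libraries at 24 h above all 6 others by CPM, and Crx and Fer1l4 are among them partly by choice.

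At 6 h the division was narrower. Crx stood at 8, 6 and 8 counts in CTRL and 8, 7 and 6 in PIO, against 26, 22 and 27 in GM and 21, 14 and 16 in PIO+GM, so the gentamicin libraries were again the higher ones without overlap. Fer1l4 stood at 6, 3 and 5 counts in CTRL, 10, 14 and 11 in GM, 13, 9 and 14 in PIO and 10, 24 and 7 in PIO+GM. For Fer1l4 it was the CTRL group alone that lay apart from the rest by CPM, and PIO without gentamicin reached the level of GM.

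**Figure D1:**
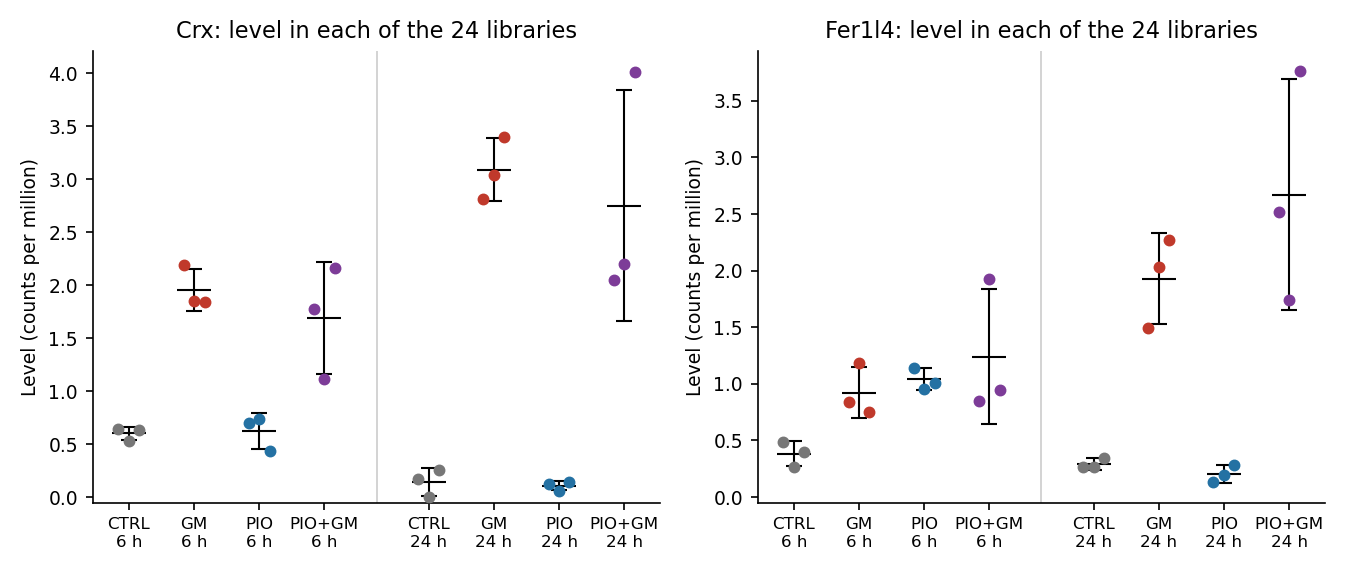
Level of Crx (left) and Fer1l4 (right) in CPM on a linear axis, with 1 point per library, a horizontal line at the mean of each group of 3 and bars of 1 SD. At 24 h the GM and PIO+GM points lie between 2.05 and 4.01 CPM for Crx and between 1.49 and 3.76 CPM for Fer1l4, above all CTRL and PIO points.

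In CPM (mean ± SD, n = 3 libraries), the order of the Crx levels ran from GM at 24 h (3.09 ± 0.298) over PIO+GM at 24 h (2.75 ± 1.09), GM at 6 h (1.96 ± 0.198) and PIO+GM at 6 h (1.69 ± 0.525) down to PIO and CTRL at 6 h (0.626 ± 0.167 and 0.604 ± 0.0646). CTRL and PIO at 24 h came last, at 0.146 ± 0.133 and 0.112 ± 0.0415 CPM. Neighbours in this order overlapped, except that PIO+GM at 6 h lay above PIO at 6 h and CTRL at 6 h above CTRL at 24 h. The order therefore had 3 separate steps, made up of the gentamicin groups, the 6 h groups without gentamicin, and the 24 h groups without it.

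The Fer1l4 levels were highest in PIO+GM at 24 h (2.67 ± 1.02 CPM) and GM at 24 h (1.93 ± 0.399 CPM). PIO+GM at 6 h (1.24 ± 0.597), PIO at 6 h (1.04 ± 0.0959) and GM at 6 h (0.923 ± 0.227) followed, then CTRL at 6 h (0.382 ± 0.11), CTRL at 24 h (0.292 ± 0.0492) and PIO at 24 h (0.203 ± 0.0791). Only GM at 6 h and its neighbour CTRL at 6 h did not overlap in this order. Per kilobase of exon (RPKM, which allows the 2 genes to be compared), Crx was the more abundant where both were highest, with 1.02 ± 0.0989 against 0.316 ± 0.0654 in GM at 24 h and 0.912 ± 0.361 against 0.438 ± 0.167 in PIO+GM at 24 h.

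Gentamicin added to pioglitazone at 24 h is the comparison at that time that shares no library with the one that chose the genes. Crx was 24.2-fold higher in PIO+GM than in PIO (95% interval 10.0 to 75.9, from 109 pooled counts against 5), and Fer1l4 was 13.2-fold higher (6.68 to 29.6, from 107 against 9). These intervals, like the floor of 3 counts, cover counting error only. In the fit over all 24 libraries the log2 fold change was 4.50 for Crx (SE 0.50) and 3.67 for Fer1l4 (SE 0.41), each with an adjusted p of 0.000173 by edgeR. Only 0.0735% of the tested genes (12) passed the threshold in this comparison, 11 of them higher (0.0674%) and 1 lower (0.00613%) with gentamicin, and Crx and Fer1l4 held the first and the second rank by p.

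All 3 PIO+GM libraries were above all 3 PIO libraries for both genes, as for 4.1% of all tested genes. By size of the fold change Crx ranked 16 and Fer1l4 ranked 37. Without the GM and CTRL libraries of 24 h, which had chosen the genes, the fit over the other 18 libraries gave 4.50 (SE 0.43, adjusted p = 0.00029) and 3.66 (SE 0.44, adjusted p = 0.00266), and 6 genes passed.

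This call rested on a spread estimated over more groups than the 2 compared. With the 6 libraries of these 2 groups alone, the log2 fold changes stayed at 4.52 and 3.68 while the adjusted p rose to 0.184 and 0.227, and 0 genes passed by edgeR (490 at an unadjusted p under 0.05). A two-sided exact permutation test on log2 CPM gave p = 0.1 for either gene, which is the smallest that 3 against 3 libraries allow, with differences of 3.39 and 2.94.

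**Figure D2:**
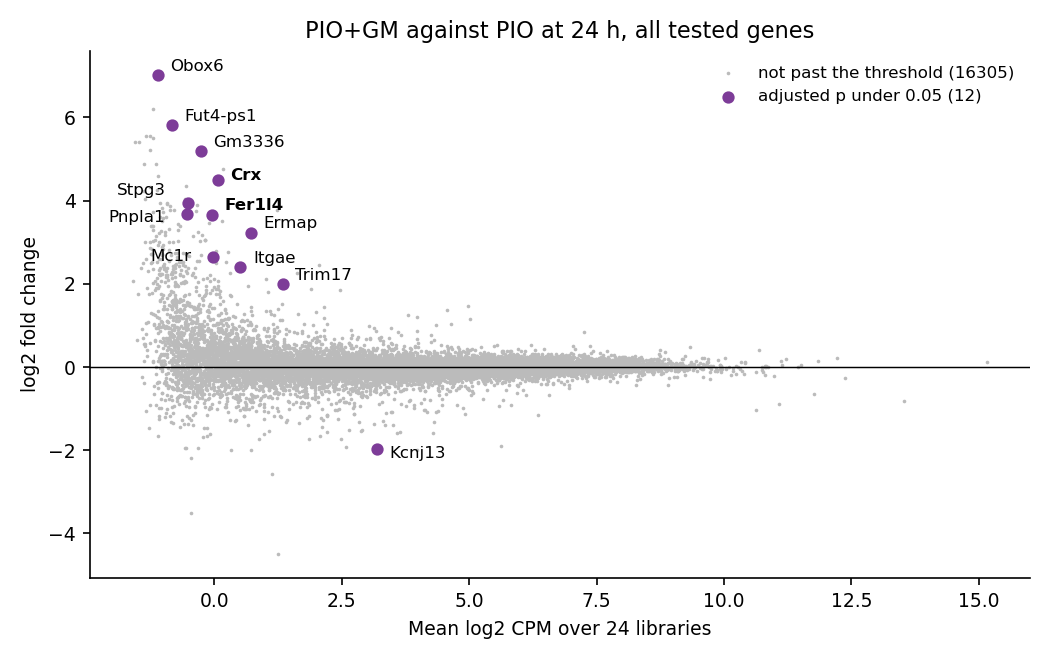
Log2 fold change of PIO+GM against PIO at 24 h for the 16317 tested genes, against the mean log2 CPM over 24 libraries. The 12 genes with an adjusted p under 0.05 are large purple points, and Crx and Fer1l4 lie among 11 that are higher with gentamicin, all at low levels, where the cloud of other genes is widest.

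PIO+GM libraries at 24 h mostly detected more genes than PIO libraries, with some overlap. At least 1 count was found for 19140, 20743 and 21412 genes in PIO+GM and for 18164, 18587 and 19272 in PIO, and the third PIO+GM library, with the most, had the highest levels of Crx (4.01 CPM) and Fer1l4 (3.76 CPM). In the groups without pioglitazone the numbers were 20693, 18919 and 20118 genes in GM and 20772, 18592 and 21059 in CTRL. Without the third PIO+GM library both genes stayed past the threshold, as they did without any other single library (log2 fold changes of 4.14 to 4.69 and 3.34 to 3.96, highest adjusted p 0.00592). The part of gene detection in the result was not tested.

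Against CTRL at 24 h, GM alone had 23.6-fold the Crx counts (95% interval 9.85 to 73.8) and 6.76-fold the Fer1l4 counts (3.59 to 14.1), with log2 fold changes of 4.42 and 2.69. These are the values that chose the genes. Without single libraries the log2 fold change of Crx lay between 3.76 and 5.16, and that of Fer1l4 between 2.57 and 2.84. In that comparison 0.0123% of the tested genes passed the threshold, which is these 2. DESeq2 called 15, the likelihood ratio test 24, the replicate block 12, the 12 libraries of 24 h 6 and the 6 compared libraries alone 0. Without the first or the third CTRL library or the second or the third GM library of 24 h the count was 1, without the second CTRL library of 24 h it was 2 but with 1 gene lower and Fer1l4 lost, without the third PIO or the second CTRL library of 6 h it was 4, and without the third CTRL library of 6 h it was 5.

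At 6 h the comparison of GM with CTRL asks whether the difference was already there early. Crx was 3.22-fold higher in GM by pooled counts (95% interval 1.98 to 5.44), with a log2 fold change of 1.68 (SE 0.41), and Fer1l4 was 2.36-fold higher (1.24 to 4.75), with 1.23 (SE 0.41). The groups did not overlap for either gene, as for 3.14% of all genes. Neither passed, at an adjusted p of 1.00 by edgeR (rank 3 for Crx and 42 for Fer1l4), and 0.0% of the tested genes did. By the same tool 243 genes had an unadjusted p under 0.05, and DESeq2 and the edgeR likelihood ratio test also called 0.

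In the presence of pioglitazone at 6 h, Crx was 2.66-fold higher with gentamicin (1.57 to 4.65, log2 fold change 1.42, SE 0.42, adjusted p = 0.998), again without overlap, as for 1.7% of all genes. Fer1l4 was at 1.25-fold (0.777 to 2.01, log2 fold change 0.28, SE 0.36, adjusted p = 0.998), its groups overlapped, and without the second PIO+GM library the value was −0.22. In this comparison 0.0% of the genes passed by edgeR (499 at an unadjusted p under 0.05), against 1 by DESeq2.

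Averaged over both backgrounds at 6 h, with 6 gentamicin libraries against 6 without, the log2 fold change of Crx was 1.55 (SE 0.29, rank 7) and its adjusted p of 0.0839 missed the threshold, which 0.0123% of genes (2) passed. That call depended on the tool and on 1 library, since the adjusted p was 0.000504 by the edgeR likelihood ratio test, 0.00295 by DESeq2 and 0.018 without the second CTRL library at 24 h, where Crx had 0 counts. A two-sided exact permutation test within the CTRL and PIO backgrounds, added after the data were seen, gave p = 0.005 for Crx, the smallest its 400 arrangements allow, with a mean difference of 1.35 on the log2 CPM scale. For Fer1l4 the averaged log2 fold change was 0.76 (SE 0.28, adjusted p = 1.00), and the permutation test gave p = 0.05 with a difference of 0.58.

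Crx was 1 of the 23 genes (0.141%) whose 6 gentamicin libraries at 6 h were all above the 6 others. The genes of this group with larger log2 fold changes than Crx included the antiviral radical-SAM enzyme Rsad2 (2.12) and the ubiquitin-like modifier Isg15 (1.88), both known as interferon-induced, and were named after their values were seen. Fer1l4 was not in this group, as PIO without gentamicin reached 1.14 CPM.

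Whether gentamicin acted differently on the 2 genes with and without pioglitazone at 6 h was examined as an interaction, also added after the data were seen. The difference between the gentamicin effects was −0.26 on the log2 scale for Crx (SE 0.60) and −0.95 for Fer1l4 (SE 0.55), each with an adjusted p of 1.00 by edgeR.

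Pioglitazone alone gave different values for the 2 genes at 6 h, and neither passed. Crx in PIO was at 0.999-fold CTRL (95% interval 0.523 to 1.91, log2 fold change 0.02, SE 0.46). Fer1l4 was 2.69-fold higher in PIO (1.42 to 5.4, log2 fold change 1.41, SE 0.41), without overlap, as for 8.68% of all genes, and its adjusted p of 0.128 missed the threshold that 0.337% of genes passed.

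Adding pioglitazone to gentamicin at 6 h left Crx at 0.826-fold (0.567 to 1.19, log2 fold change −0.24, SE 0.38, adjusted p = 0.721) and Fer1l4 at 1.42-fold (0.884 to 2.3, log2 fold change 0.45, SE 0.36, adjusted p = 0.437), or −0.05 without the second PIO+GM library. The groups overlapped, and 1.32% of genes passed in this comparison. At 24 h, where GM is a group that chose the genes, PIO+GM stood at 0.866-fold GM for Crx (0.665 to 1.13) and 1.35-fold for Fer1l4 (1.0 to 1.82), with log2 differences of −0.17 and 0.46. Without gentamicin at 24 h, PIO and CTRL each held 5 pooled Crx counts (ratio 0.845, 0.195 to 3.67) and 9 and 11 Fer1l4 counts (0.692, 0.253 to 1.84).

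PIO+GM against CTRL at 6 h, a comparison added after the data were seen, gave log2 fold changes of 1.44 for Crx (SE 0.42, adjusted p = 0.0669) and 1.69 for Fer1l4 (SE 0.41, adjusted p = 0.0362), with 2.64% of genes past the threshold. By pooled counts these were 2.66-fold (1.58 to 4.6) and 3.36-fold (1.79 to 6.67). Neither call was stable. That of Fer1l4 was lost without any of the 3 CTRL libraries at 6 h or without the second or the third PIO+GM library (1.19 to 1.89, highest adjusted p 0.257), and Crx passed with the replicate number as a block (1.43, adjusted p = 0.0322) and without the first PIO+GM library at 6 h, the second PIO library at 6 h or the second CTRL library at 24 h.

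Between 6 h and 24 h both genes fell in PIO, and Fer1l4 rose in PIO+GM. In PIO, Crx fell to 0.184-fold (95% interval 0.0541 to 0.501, log2 fold change −2.37, SE 0.57, adjusted p = 0.00503) and Fer1l4 to 0.193-fold (0.0817 to 0.408, log2 fold change −2.31, SE 0.44, adjusted p = 0.000932). All 3 PIO libraries at 24 h were below all 3 at 6 h. Falling with time was common in this group, since 15.8% of the genes passed as lower and 29.0% in either direction, and 20.7% had the 24 h libraries below the 6 h libraries without overlap.

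In PIO+GM, Fer1l4 rose 2.04-fold over the same interval (1.41 to 3.0, log2 fold change 1.07, SE 0.34, adjusted p = 0.0197), where 34.6% of genes passed. Crx was at 1.67-fold (1.19 to 2.38, log2 fold change 0.72, SE 0.37, adjusted p = 0.136), which missed the threshold, and the groups of both genes overlapped. The Fer1l4 call was lost without the first or the third PIO+GM library at 6 h (0.85 and 0.94, adjusted p = 0.0792 and 0.0637) or the third at 24 h (0.76, adjusted p = 0.116), and also with the 6 libraries of these groups alone (1.05, adjusted p = 0.111).

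In the groups that chose the genes, the differences had the same signs. From 6 h to 24 h the log2 difference in CTRL was −2.09 for Crx and −0.39 for Fer1l4, and in GM it was 0.66 for Crx and 1.07 for Fer1l4. Crx in CTRL went from 22 pooled counts to 5, and Fer1l4 from 14 to 11. Without single libraries the log2 difference in CTRL lay between −2.82 and −1.43 for Crx and between −0.58 and −0.19 for Fer1l4.

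The change of the gentamicin effect between 6 h and 24 h, measured in the presence of pioglitazone, was 3.38 on the log2 scale for Fer1l4 (SE 0.55) and 3.09 for Crx (SE 0.68). By p these ranked 1 and 4 of 16317 genes, but the adjusted p was 0.0968 and 0.735 by edgeR, and 0.0% of genes passed. By the same tool 247 genes had an unadjusted p under 0.05, DESeq2 called 0 and the edgeR likelihood ratio test 6, with Fer1l4 at 3.37 (adjusted p = 0.00473). Fer1l4 also passed without the second PIO+GM library at 6 h (3.88, adjusted p = 0.0161) or at 24 h (3.61, adjusted p = 0.0425).

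**Figure D3:**
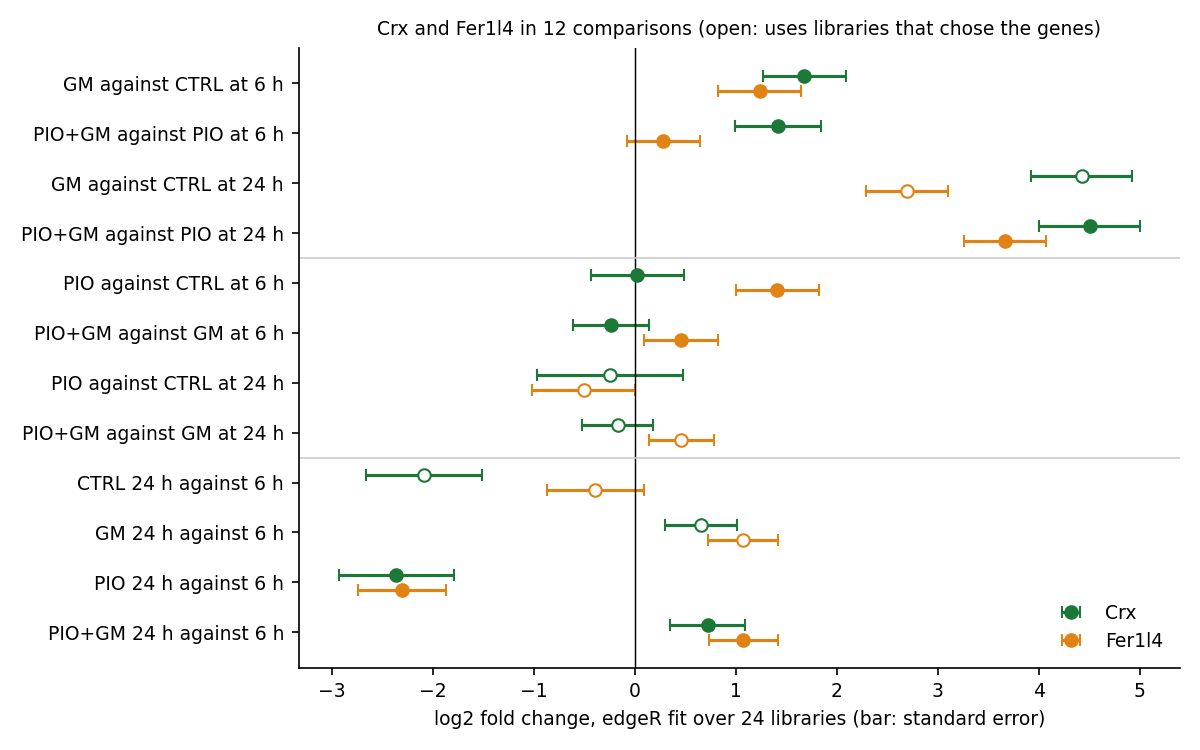
Log2 fold change of Crx (green) and Fer1l4 (orange) in 12 comparisons, from the edgeR fit over 24 libraries, with bars of 1 SE and open symbols for comparisons that use the libraries that chose the genes. For PIO+GM against PIO the values are 1.42 (Crx) and 0.28 (Fer1l4) at 6 h and 4.50 and 3.67 at 24 h, a change whose own test did not pass, and the levels in PIO fall with time (−2.37 and −2.31).

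The genes beside Crx and Fer1l4 were looked at next, the 3 nearest RefSeq genes on each side that have a row in the count table. Beside Crx, the homeobox gene Obox6 (26268 bp away) was itself past the threshold for PIO+GM against PIO at 24 h, having entered the test through its high groups, since it had at most 8 counts in any library outside GM and PIO+GM at 24 h. It had 0 counts in all PIO libraries and 15 to 19 in PIO+GM, at least 18.8-fold higher against a floor of 3 counts over the group (adjusted p = 0.0278 by edgeR, or 0.0232 with no filter). Its call was lost in 8 of 34 alternatives, among them the replicate block (adjusted p = 0.0636). In CTRL and GM at 24 h Obox6 had 0 to 1 and 21 to 23 counts.

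The nearest gene, Crxos on the side of higher coordinates (2662 bp away) had 0 to 4 counts in every library, and Obox5 and Obox3 had 0 to 5 and 0 to 6, so these 3 were not tested. The selenoprotein gene Selenow (0.12, SE 0.14) and the ribosome biogenesis gene Nop53 (0.02, SE 0.19), on the same side as Crxos, had log2 fold changes near 0.

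Beside Fer1l4, none of the 6 neighbours passed. The nearest, Ergic3, a gene of the secretory pathway only 860 bp away, stood at 487 to 2220 counts and had a log2 fold change of 0.04 (SE 0.11). 6430550D23Rik (0.19, SE 0.25), the centrosome gene Cep250 (−0.01, SE 0.26), Spag4 (−0.33, SE 0.45), Cpne1 (0.06, SE 0.14) and Rbm12 (−0.02, SE 0.10) were likewise at an adjusted p of 1.00 by edgeR.

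**Figure D4:**
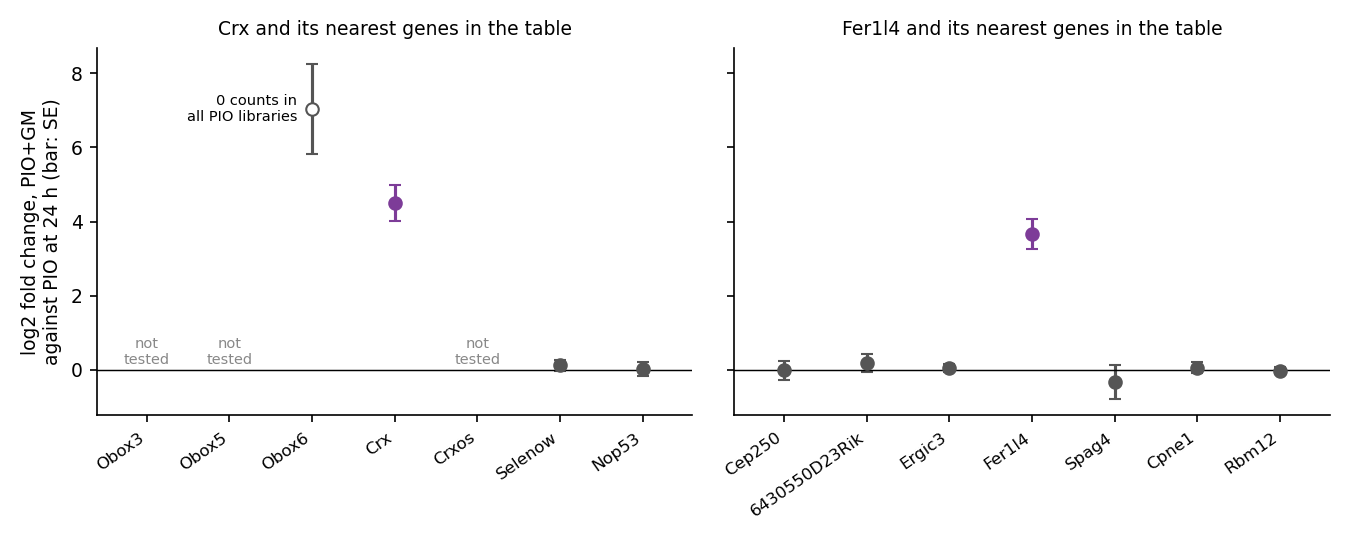
Log2 fold change of PIO+GM against PIO at 24 h for Crx (left) and Fer1l4 (right) and the 3 nearest genes of the count table on each side in genome order, with bars of 1 SE. Obox6, drawn open because its PIO libraries all held 0 counts and its fitted value is no bound, and Crx stand apart from Selenow and Nop53, and Fer1l4 from its 6 neighbours.

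The genes most like the pair were ranked by Pearson's correlation of log2 CPM over the 24 libraries, which share their treatments and depth, so the values are descriptions. GM and CTRL at 24 h, which chose both genes, are among these libraries, so a high correlation of the pair was partly set by the choice. Fer1l4 was the gene most like Crx (r = 0.86), before Obox6 (0.85), the lipase family gene Pnpla1 (0.84), the myogenic factor Myf6 (0.83) and the muscle AMP deaminase Ampd1 (0.82). For Fer1l4 the order was Pnpla1 (0.87), Crx (0.86), Stpg3 (0.84), Ampd1 (0.83) and Gm3336 (0.83). Over the 18 libraries without GM and CTRL at 24 h the correlation of the pair was 0.81. Fer1l4 then ranked 3 for Crx, and Crx ranked 4 for Fer1l4. The leading genes were then the integrin Itgae for Crx (0.83) and Stpg3 for Fer1l4 (0.88).

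Several of these genes, all with few counts, were among the other 10 past the threshold for PIO+GM against PIO at 24 h. Fut4-ps1, a pseudogene, rose from 0 to 1 counts in PIO to 20 to 31 in PIO+GM (log2 fold change 5.81), having at most 9 counts outside GM and PIO+GM at 24 h and so entering the test through them (adjusted p = 0.00369 with no filter), and Gm3336 from 0 to 2 to 22 to 30 (5.20). Stpg3 rose by 3.93, Pnpla1 by 3.69, the erythroid membrane gene Ermap by 3.23, the melanocortin receptor Mc1r by 2.64, Itgae by 2.41 and the ubiquitin ligase gene Trim17 by 1.99. The potassium channel gene Kcnj13 was the 1 that fell, by 1.98 on the log2 scale, from 137 to 267 counts in PIO to 29 to 56 in PIO+GM, and with the replicate block it was no longer past the threshold (adjusted p = 0.0653). Myf6 and Ampd1 did not pass, each at an adjusted p of 0.0543, but with no filter both did (adjusted p = 0.0453 and 0.0419), and with the block Ampd1 did (adjusted p = 0.0107).

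Ermap and Stpg3 kept their call in 33 of 34 alternatives, Fut4-ps1 in 31, Gm3336 in 29, Trim17 in 28, Pnpla1, Itgae and Kcnj13 in 27, and Mc1r in 26. At 24 h without pioglitazone, the GM against CTRL log2 fold changes of these 10 genes were 5.44 for Obox6, 5.34 for Gm3336, 3.47 for Pnpla1, 2.93 for Fut4-ps1, 1.91 for Mc1r, 1.70 for Trim17, 1.51 for Stpg3, 1.10 for Ermap, 0.89 for Itgae and −1.41 for Kcnj13. None of them passed there.

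Since Crx is known as a regulator of photoreceptor genes, 40 such genes were followed. Only 20 passed the filter on low counts, and in PIO+GM against PIO at 24 h 0 of 20 passed the test by edgeR, against 0.0735% of all tested genes, with 11 higher and a median log2 fold change of 0.04, against 0.00 over all genes. At an unadjusted p under 0.05 there were 3 of the 20, against 2.59% of all genes, and DESeq2 called 1 (0.215% of all genes) and the likelihood ratio test 2 (0.343%). Their summed level was 108 to 114 CPM in PIO and 93.9 to 114 CPM in PIO+GM, most of it from the signalling regulator Rgs9 (37.9 CPM, log2 fold change 0.03, SE 0.28) and the guanylate cyclase Gucy2f (22.3 CPM, 0.18, SE 0.31). The member with the lowest adjusted p was the photoreceptor kinase Grk1, at −1.92 (SE 0.42, adjusted p = 0.122), and it was the gene called by DESeq2. The exchanger gene Slc24a1 had the largest fold change of the list, at 3.30 (SE 0.86, adjusted p = 0.30), and was called with Grk1 by the likelihood ratio test. The defining phototransduction genes Gnat1 (0 to 10 counts), Pde6b (0 to 6) and Gngt1 (0 to 2) were at or near 0.

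Among 20 transcription factors of photoreceptor development, 11 were tested and 0 passed (0 also at an unadjusted p under 0.05 and by the other tools), where 0.0735% and 2.59% of all genes did, with a median of −0.03 and 4 higher. Otx2, the relative that acts before Crx in the retina, was at 63 to 246 counts in every library and had a log2 fold change of 0.05 (SE 0.34). The rod factors Nrl (0 to 7 counts) and Nr2e3 (1 to 8 counts) were too low to test, while the thyroid hormone receptor Thrb (148 CPM, −0.03, SE 0.19) was abundant.

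Of 5 pineal genes only the serotonin pathway enzyme Tph1 could be tested (0.53, SE 0.55, adjusted p = 1.00). The melatonin enzymes Aanat (0 to 7 counts, 0 in 8 libraries) and Asmt (0 to 2 counts, 0 in 11 libraries) were scarce.

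In the ferlin family, 5 of 6 genes were matched in the table, Fer1l6 being unmatched, and 1 of the 5, Fer1l4 itself, passed in PIO+GM against PIO at 24 h, where 0.0735% of all genes did. The log2 fold changes were 0.09 for dysferlin (Dysf, SE 0.27), 0.12 for myoferlin (Myof, SE 0.41), −0.31 for otoferlin (Otof, SE 0.36) and −0.32 for Fer1l5 (SE 0.73). By CPM the other ferlins were far more abundant (124.0 for Myof, 113.0 for Otof and 38.7 for Dysf), except Fer1l5 at 0.707, and no test of a difference between family members was made.

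A list of 20 genes that work with ferlins in membrane repair had 18 tested and 0 passing, where 0.0735% of all genes passed (1 at an unadjusted p under 0.05, against 2.59% of all genes, and 0 by the other tools), with 13 higher and a median log2 fold change of 0.04. Its most abundant members were the dysferlin partner Ahnak (0.05, SE 0.20) and the annexin Anxa5 (0.20, SE 0.30).

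Marker lists of the cell types in the explant were read beside the pair for the same comparison, and 0 genes passed in any of them by edgeR, where 0.0735% of all genes did, so that a count of 0 in lists of this size is near the background. At an unadjusted p under 0.05, which 2.59% of all genes had, there was 1 hair cell marker, the mechanotransduction gene Lhfpl5 (−1.51, SE 0.38, adjusted p = 0.252), which DESeq2 and the likelihood ratio test also called, and 1 supporting cell marker, Hes5, which they did not. Of 16 hair cell markers 3 were higher (median −0.39), with a summed level of 665 to 1020 CPM in PIO and 642 to 884 CPM in PIO+GM. Of 14 supporting cell markers 4 were higher (median −0.08, 2130 to 4320 CPM against 2270 to 4680 CPM), and of 14 macrophage markers 10 (median 0.05, 91.8 to 247 CPM against 86.6 to 239 CPM). Neuron markers had 4 of 12 higher (median −0.16), at 420 to 538 CPM against 451 to 468 CPM.

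All 10 Schwann cell markers were higher in PIO+GM (median 0.37), with sums of 295 to 558 CPM in PIO and 346 to 976 CPM in PIO+GM. At 6 h the same 10 were also higher (median 0.73), as were 10 of 12 neuron markers (median 0.47). Of the hair cell, supporting cell and macrophage markers, 6 of 16, 2 of 14 and 5 of 14 were higher at 6 h. The part of glial or nerve content in the Crx and Fer1l4 levels was not tested.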

How the data were processed

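Total RNA of explant pools was sequenced with a stranded total RNA kit on a NextSeq, as single reads of 76 bases on 2 flow cells per library. Per the study's methods, the authors aligned reads with STAR 2.5.2a (build mm10, per the processing notes) and deposited counts, not normalized, of reads starting in RefSeq exons (QuasR 1.16.0), 1 column per library. How strand and multiply mapping reads were used is not given in the sources used here. Symbols were found for 24374 of the 24454 Entrez identifiers, and 80 had none.

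Genes were filtered with filterByExpr and scaled by TMM (factors 0.961 to 1.04). One quasi-likelihood model over the 8 groups and 24 libraries (edgeR 4.0.16, R 4.3.3) gave fold changes, SE and Benjamini-Hochberg adjusted p over the 16317 genes, with a threshold of 0.05. CPM used TMM-scaled totals, log2 CPM a prior count of 2, and RPKM the exon length in the table. Ratios of pooled counts, scaled by the same totals, have exact 95% intervals (Clopper-Pearson, scipy 1.17.1). DESeq2 1.42.0 and other settings were alternatives. In simulated counts for PIO+GM against PIO at 24 h (15995 genes), 45.1% of genes changed by a log2 of 1 were recovered. A log2 of 2 gave 89.6% and a log2 of 4 gave 100%, with 9 false calls. The rates were not split by level, and recovery at the low counts of Crx and Fer1l4 was not tested.

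The genes, gene lists and comparisons were chosen with earlier results of these data known. Named genes were the pair, the 3 neighbours on each side, the 5 most alike, the genes past the threshold for PIO+GM against PIO at 24 h, and for each list the ferlins or most abundant members. Genes at 0 or singled out beyond this were named after their values were seen. Same-numbered PIO and PIO+GM libraries at 24 h deviated together (every correlation over 0.1), so the replicate number was fitted as a block as an alternative. Protein sequences were not used here.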

Additional observations from a re-analysis of the deposited data

How the results depend on the processing

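No value of the pair past the threshold changed sign. Of 734 alternatives to the 22 log2 fold changes of the pair that have a test, 708 kept the side of the threshold, and 26 did not. Those that leave out no library follow with adjusted p, and the others are given as ranges. With the libraries of the compared groups alone, the calls of PIO+GM against PIO at 24 h were lost (Crx 4.52, 0.184, and Fer1l4 3.68, 0.227), as were those of Fer1l4 for PIO+GM from 6 h to 24 h (1.05, 0.111) and against CTRL at 6 h (1.70, 0.354). That last call was also lost with no filter (1.68, 0.0643), with the 12 libraries of 6 h (1.67, 0.219) and with the 18 libraries (1.69, 0.086). The likelihood ratio test added calls for Crx averaged at 6 h (1.54, 0.000504), the Fer1l4 interaction (3.37, 0.00473) and Crx in PIO+GM against CTRL at 6 h (1.42, 0.0295), DESeq2 one for Crx averaged at 6 h (1.57, 0.00295), and the replicate block one for Crx in PIO+GM against CTRL at 6 h (1.43, 0.0322). The smaller fits hold fewer libraries, and otherwise the cause was not tested.

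Leaving out single libraries moved the log2 fold change of Crx averaged at 6 h between 1.44 and 1.66, of Fer1l4 in PIO+GM over time between 0.76 and 1.58, of its interaction between 3.07 and 3.88, and of PIO+GM against CTRL at 6 h between 1.25 and 1.67 for Crx and 1.19 and 1.92 for Fer1l4. Values never past the threshold changed sign without single libraries for Crx in PIO against CTRL (−0.11 to 0.24 at 6 h, −0.91 to 0.49 at 24 h) and for Fer1l4 in PIO+GM against PIO (−0.22 to 0.51) and against GM (−0.05 to 0.67) at 6 h.

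The number of genes called moved more than the values of the pair. For PIO+GM against PIO at 24 h (12) it was 20 with no filter, 56 by the likelihood ratio test, 35 by DESeq2, 18 with the replicate block (PIO+GM against PIO: 4.47 and 3.65, both at 0.000286), 5 and 4 without the first and the third PIO library, 7 and 5 without the first and the third PIO+GM library, and 23 and 19 without the second and the third CTRL library of 6 h. The block moved other counts to 8 for the average at 6 h (2), 371 for PIO against CTRL at 6 h (55), 1990 for PIO+GM against GM at 6 h (216) and 1543 for PIO+GM against CTRL at 6 h (431), but same-numbered libraries of 6 h share little beyond the number (mean correlation 0.113, over 0.1 in 9 of 18 pairs, against 0.38 and 15 of 18 at 24 h). Over the settings other than the block the counts ranged from 0 to 49 for the average at 6 h, 0 to 383 for PIO against CTRL, 0 to 1330 for PIO+GM against GM and 2 to 1288 for PIO+GM against CTRL at 6 h, and without single libraries from 0 to 16, 6 to 257, 4 to 4053 and 31 to 3567. Over time the counts were 1540 to 5374 in PIO and 4002 to 6179 in PIO+GM, or 2702 and 3453 at the lowest without the second PIO and the second PIO+GM library of 6 h. With 0 to 51 counts per library, counting error alone limits the precision of every fold given for the pair.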
